A study of Mus musculus with 40 samples.

Results

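Acyl-CoA thioesterases are enzymes that hydrolyse fatty acyl-CoAs to free fatty acids and coenzyme A. The 8 genes Acot1, Acot2, Acot3, Acot4, Acot8, Acot9, Acot12 and Acot13 were taken by symbol from the 32544 gene rows of a liver count table. All 8 were present and all 8 were among the 12616 genes that passed a filter on low counts and were tested. RNA was sequenced from livers of male C57BL/6 mice raised germ-free, so that all 4 groups lacked gut microbes, and every mouse was at postnatal day 64. The groups, of 5 mice each, were mice on a control diet given vehicle, mice on a control diet given delta-valerobetaine (VB), mice on a Western diet given vehicle, and mice on a Western diet given VB. Treatment lasted 6 weeks. VB is a trimethylated compound that gut bacteria make, and these hosts receive it without the bacteria. The design asks what VB does to liver transcripts on each diet and whether that depends on the diet.

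The substrates of these enzymes are the activated form in which fatty acids enter oxidation and lipid synthesis, so thioesterases oppose the acyl-CoA synthetases. The type I enzymes share an alpha/beta hydrolase fold and sit in a gene cluster in mice: Acot1 is cytosolic, Acot2 is mitochondrial, and Acot3 and Acot4 are peroxisomal. The type II enzymes share a hotdog fold and include the peroxisomal Acot8, the mitochondrial Acot9, the acetyl-CoA hydrolase Acot12 of liver cytosol and Acot13, also called Them2. In mouse liver the type I genes are known targets of the fatty acid receptor PPARA and are known to be induced by fasting and by PPARA ligands.

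Libraries held 16315342 to 24566686 counts per mouse after the 2 sequencing lanes of each mouse were summed. Levels are given as CPM, counts divided by library size, with library sizes scaled by TMM factors. All 8 hepatocyte markers were present, with a summed level of 44001 to 67901 CPM. The control diet vehicle, control diet VB, Western diet VB and Western diet vehicle groups differed in circadian clock genes: a score made from 21 of them ran from -1.78 to -0.84, from -0.56 to 0.05, from -0.25 to 0.72 and from 1.198 to 1.48 in these groups. The labels give no collection time, and library names differ in form between the diets, so a handling batch and diet cannot be told apart. Among 20 mice, 3 libraries stood apart. Western diet vehicle mouse 4 had the highest mitochondrial share of counts, 4.62%. Western diet VB mice 2 and 5 held the adipocyte transcript Adipoq at 7.31 and 4.09 CPM, against at most 0.176 CPM in the other 18 mice. The tested comparisons were therefore also fitted without these libraries, and the main changes in calls of members are given. Levels, shares and correlations were not recomputed without them.

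On the genome build GRCm38 the type I members lie side by side on the plus strand of chromosome 12, within 72.5 kb: Acot2 at chr12:83987861-83993873, Acot1 at chr12:84009490-84018371, Acot4 at chr12:84038379-84048601 and Acot3 at chr12:84052144-84060402. The other members are scattered, with Acot8 at chr2:164792765-164804882 on the minus strand, Acot9 at chrX:155262443-155297654 on the plus strand, Acot12 at chr13:91741512-91786148 on the plus strand and Acot13 at chr13:24817948-24831540 on the minus strand. All are protein-coding. The members of the cluster are copies of one another, and this bears on how well their reads can be told apart. Coding sequences of Acot1 and Acot2 were identical at 95.3% of 1236 aligned bases, those of Acot1 and Acot3 at 85.0%, those of Acot3 and Acot4 at 75.3% and those of Acot1 and Acot4 at 76.5%. Elsewhere in the coding sequences a read of ordinary length can also be the same in other pairs. The longest identical run was 203 bases for Acot1 with Acot3, 108 for Acot1 with Acot4 and 111 for Acot3 with Acot4. One stretch of 90 coding bases, sense strand, GENCODE transcripts on GRCm38, is shown from each, with capitals for bases that differ from Acot1. In this stretch Acot1 and Acot2 are nearly the same, and Acot3 and Acot4 differ more. It starts at coding base 583 of Acot1 and Acot4, 706 of Acot2 and 616 of Acot3, and holds 2 differences in Acot2, 18 in Acot3 and 29 in Acot4.
Acot1: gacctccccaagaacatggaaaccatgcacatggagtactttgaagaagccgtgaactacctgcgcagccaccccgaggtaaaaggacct
Acot2: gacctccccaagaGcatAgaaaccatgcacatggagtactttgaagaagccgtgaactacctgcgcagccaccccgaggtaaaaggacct
Acot3: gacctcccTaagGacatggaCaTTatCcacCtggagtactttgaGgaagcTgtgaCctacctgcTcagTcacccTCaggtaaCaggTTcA
Acot4: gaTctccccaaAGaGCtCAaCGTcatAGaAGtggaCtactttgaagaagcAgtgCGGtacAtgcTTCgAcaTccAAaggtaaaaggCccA

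Of all 50-base windows in the annotated transcripts, 33.6% of those of Acot1 and 27.7% of those of Acot2 also occurred in another gene, 23.7% of the Acot1 windows in Acot2 itself. The share was 21.7% in Acot3 and 14.4% in Acot4, partly through an overlapping gene model, Gm49366, and an antisense gene, 4732463B04Rik. For Acot8 it was 17.7%, all in the opposite-strand neighbour Snx21, for Acot9 20.2%, shared with its retrocopy Acot10, for Acot12 3.32% and for Acot13 none. Acot10 itself had no count in any mouse. No source used here names the counting tool or its strand setting, so the split of such reads is uncertain, most of all between Acot1 and Acot2. With vehicle, Acot2 took 8.49% ± 0.88 (SD, n = 5) of the reads of both genes on the control diet and 12.1% ± 1.48 on the Western diet, so the 2 counts were not in a fixed ratio. With VB the share was 8.06% ± 2.32 on the control diet and 9.46% ± 3.56 on the Western diet.

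Because the cluster members varied together across mice, the 250 bases before their annotated start sites are shown as well. Each was searched on both strands for the nuclear receptor half-site AGGTCA, for a direct repeat of that half-site with a 1-base spacer (the element PPARA binds with its partner), for the E-box CACGTG and the D-box TTATGTAA of circadian factors, and for CCAAT. Capitals mark matches. RefSeq windows were found for 7 of the 8 members, all but Acot13. Those shown are from RefSeq on GRCm38.p6, plus strand, at chr12:84009252-84009501 for Acot1, chr12:83987611-83987860 for Acot2, chr12:84051894-84052143 for Acot3 and chr12:84038129-84038378 for Acot4.
Acot1: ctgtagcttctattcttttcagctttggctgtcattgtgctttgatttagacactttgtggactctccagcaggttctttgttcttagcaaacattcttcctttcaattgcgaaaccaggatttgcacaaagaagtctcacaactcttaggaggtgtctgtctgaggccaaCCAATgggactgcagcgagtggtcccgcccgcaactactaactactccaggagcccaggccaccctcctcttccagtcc
Acot2: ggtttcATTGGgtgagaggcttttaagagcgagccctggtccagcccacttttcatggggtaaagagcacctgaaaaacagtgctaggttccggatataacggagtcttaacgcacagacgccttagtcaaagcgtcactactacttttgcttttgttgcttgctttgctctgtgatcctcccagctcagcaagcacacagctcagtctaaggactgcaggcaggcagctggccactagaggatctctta
Acot3: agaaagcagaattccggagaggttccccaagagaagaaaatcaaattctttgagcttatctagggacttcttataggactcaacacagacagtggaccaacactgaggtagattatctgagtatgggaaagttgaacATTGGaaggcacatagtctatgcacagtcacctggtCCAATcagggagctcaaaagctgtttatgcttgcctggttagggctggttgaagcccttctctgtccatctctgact
Acot4: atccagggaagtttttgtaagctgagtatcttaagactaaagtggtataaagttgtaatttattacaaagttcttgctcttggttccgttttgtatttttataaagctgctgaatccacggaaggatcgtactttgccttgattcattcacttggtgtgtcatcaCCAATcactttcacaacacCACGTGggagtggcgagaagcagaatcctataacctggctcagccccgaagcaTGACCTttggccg

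CCAAT, read on either strand, was the single motif found in all 4 windows, and 33.8% of all 32851 RefSeq windows of that length held it. The window of Acot4 also held an E-box at -66 to -61 and a half-site at -13 to -8, counted from the start site. Of all windows, 6.02% held the E-box and 14.02% the half-site. None of the 4 held the direct repeat, found in 0.0335% of all windows, or the D-box, found in 0.819%. Although the coding sequences shared identical runs of up to 273 bases (Acot1 with Acot2), no pair of these promoter windows shared a run of more than 9 bases on the same strand. Of the other members, Acot12 held 1 half-site at -110 to -105, and Acot8 and Acot9 held CCAAT only.

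Levels between genes were compared per kilobase of exon. Over all 20 mice Acot13 stood highest, at 66.6 CPM per kb ± 15.5 (SD), followed by Acot12 at 29.4 ± 4.78, Acot1 at 15.8 ± 7.43 and Acot8 at 11.02 ± 1.79. Acot4 at 4.01 ± 2.06, Acot3 at 3.75 ± 4.65 and Acot2 at 3.00 ± 1.92 had means close to one another, and Acot9 was lowest at 1.32 ± 0.281. The SDs include the differences between groups, and the genes were not compared mouse by mouse. The levels per kb depend on the exon length used. With the length of the principal transcript, chosen after seeing the data, the order was the same but Acot1 stood at 27.2 ± 12.8, near Acot12 at 31.7 ± 5.15, and Acot8 at 19.1 ± 3.10. Acot3 changed place between groups: in control diet vehicle mice it was the lowest member, at 0.894 CPM per kb, and in Western diet vehicle mice it was above Acot2, Acot4 and Acot9, at 10.2. On the control diet, the 4 cluster genes made up 14.9% ± 4.70 (SD, n = 5) of the summed level per kb of the 8 members with vehicle and 20.9% ± 5.77 with VB. On the Western diet they made up 26.2% ± 5.59 with vehicle and 12.3% ± 3.99 with VB. With principal transcript lengths the shares in the same order were 18.97%, 25.9%, 30.4% and 15.7%, each within 1 SD of the value above.

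**Figure D1:**
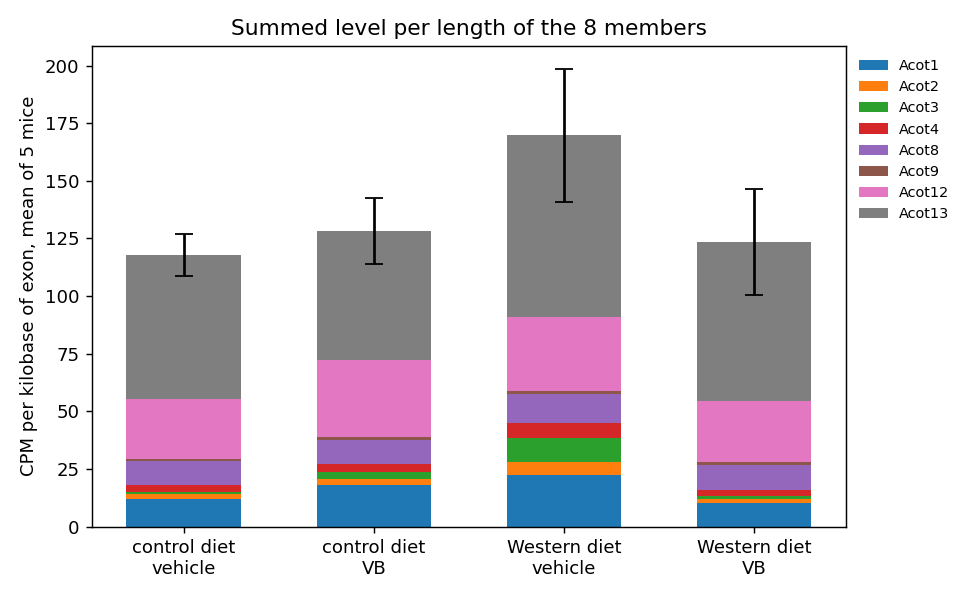
Stacked mean level of the 8 members in CPM per kilobase of exon (vertical axis) in each of the 4 groups (5 mice each); error bars are the SD of the sum over mice. Acot13 and Acot12 fill most of each bar, and the part made up by Acot1 to Acot4 is 26.2% in Western diet vehicle mice and 12.3% in Western diet VB mice.

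The largest shifts were in Acot3, the peroxisomal enzyme for medium- and long-chain acyl-CoAs. It stood at 1.03, 4.62, 1.72, 4.62 and 3.37 CPM in the 5 control diet vehicle mice, and at 29.0, 59.2, 15.6, 22.4 and 48.3 CPM in the 5 Western diet vehicle mice. Every Western diet vehicle mouse was above every control diet vehicle mouse. Western diet mice given VB had 1.43, 0.901, 7.57, 12.04 and 0.288 CPM, all below the lowest Western diet vehicle mouse, and control diet mice given VB had 14.8, 4.08, 9.30, 10.6 and 6.81 CPM, which overlapped with their vehicle group. The Western diet VB group was itself uneven, since mice 3 and 4 were several times above the other 3 mice, and mouse 5 had 6 counts in all.

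Acot4, which hydrolyses succinyl-CoA and dicarboxylyl-CoAs in peroxisomes, was likewise highest in Western diet vehicle mice, with smaller steps between groups. Its levels were 15.2, 19.5, 16.8, 23.9 and 22.1 CPM in control diet vehicle mice and 41.5, 58.5, 27.5, 39.4 and 59.2 CPM in Western diet vehicle mice, with no overlap. Western diet VB mice had 13.5, 13.5, 21.4, 27.4 and 8.32 CPM, and the highest of them lay just under the lowest Western diet vehicle mouse. Control diet VB mice had 33.7, 18.9, 26.1, 25.0 and 23.9 CPM, again overlapping with vehicle, and mouse 1 was above the lowest Western diet vehicle mouse.

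Acot2, the mitochondrial member, was scarce. It was at 3.51, 4.46, 2.42, 4.93 and 5.96 CPM in control diet vehicle mice and at 9.99, 17.2, 7.02, 16.7 and 10.9 CPM in Western diet vehicle mice. The groups did not overlap. In Western diet VB mice it was at 3.60, 2.76, 4.62, 6.64 and 2.16 CPM, below all vehicle mice on that diet. Control diet VB mice had it at 6.70, 3.56, 6.12, 6.63 and 5.62 CPM.

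Acot1, the cytosolic enzyme for long-chain acyl-CoAs and the most abundant gene of the cluster, had the same order of group means as Acot2 and Acot4, with more overlap. Control diet vehicle mice had 32.8, 47.9, 24.6, 57.7 and 74.1 CPM, and Western diet vehicle mice had 72.8, 109.9, 56.7, 106 and 95.1 CPM. Western diet VB mice had 19.5, 33.5, 49.3, 66.8 and 31.0 CPM, and control diet VB mice had 112, 34.9, 47.9, 77.1 and 85.0 CPM. Each pair of groups that differed in one factor overlapped.

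Acot12, the liver acetyl-CoA hydrolase, varied over a narrow range. Its levels were 72.7, 90.4, 68.1, 86.9 and 109 CPM in control diet vehicle mice and 118, 99.96, 106, 109 and 114 CPM in control diet VB mice. On the Western diet they were 105, 105, 103, 84.8 and 131 CPM with vehicle and 82.1, 83.7, 88.1, 89.2 and 92.8 CPM with VB. All 5 VB mice on the Western diet were below all 5 VB mice on the control diet, and the other pairs of groups overlapped.

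The other 3 genes were flatter. Acot8, which acts on a broad range of acyl-CoAs in peroxisomes, ranged from 17.2 to 33.3 CPM over all 20 mice, with group means of 20.2 to 25.2 CPM. Acot9, a mitochondrial enzyme, ranged from 1.70 to 4.08 CPM with means of 2.70 to 3.36 CPM. Acot13 ranged from 34.1 to 86.4 CPM with means of 41.7 to 58.5 CPM, and its highest value came from Western diet vehicle mouse 4, the library with the high mitochondrial share. None of the 3 had groups that stood apart. How many of all genes tested had groups that stood apart was not counted. The separations given here and for the members above are therefore a description. Across the 8 genes and 4 groups, no mouse lay far enough from its group to pass Dixon's test at a critical value of 0.71.

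**Figure D2:**
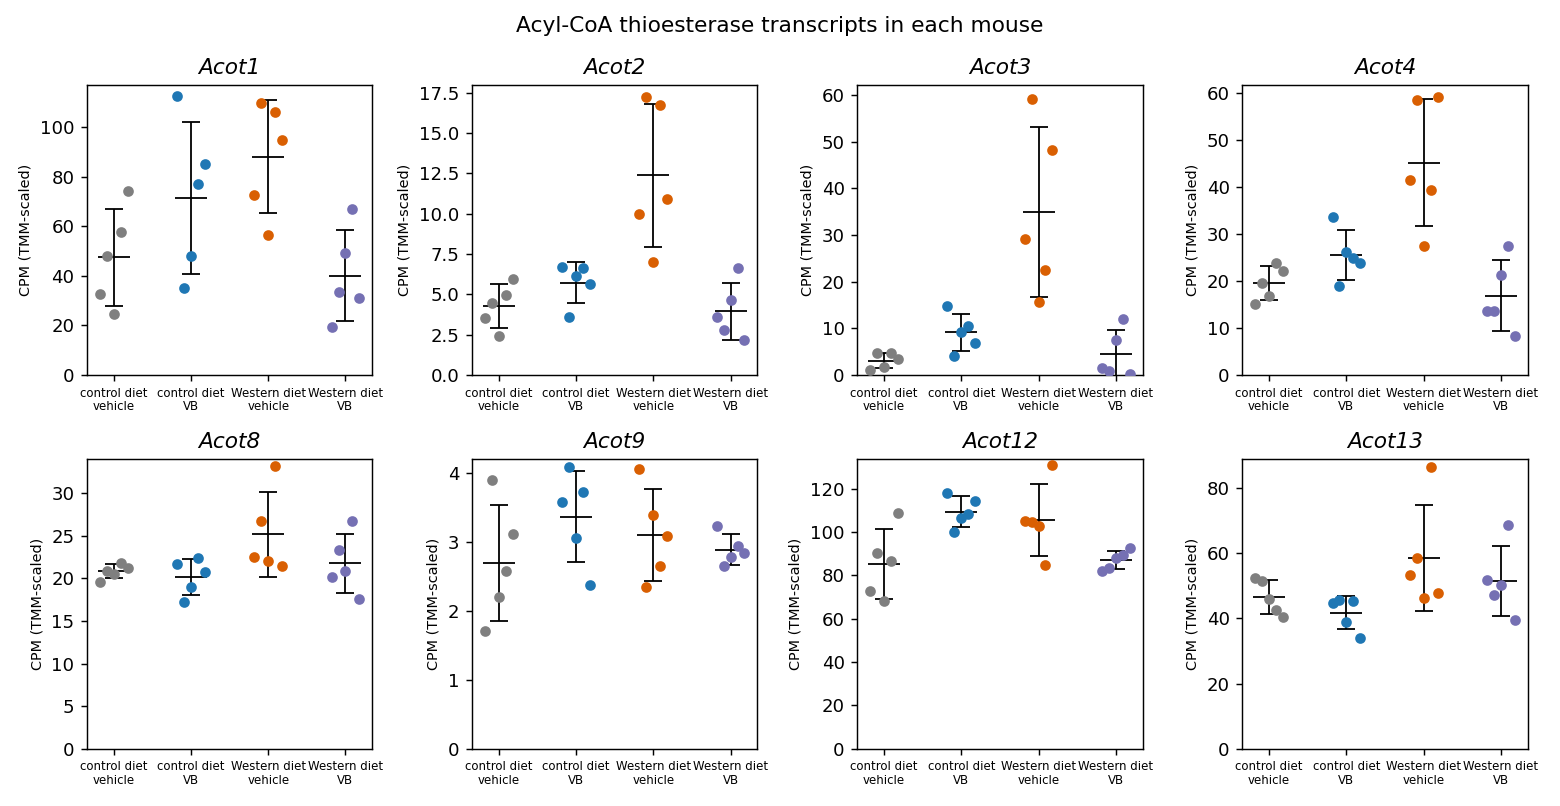
Level of each member in CPM (vertical axes, from 0) in each mouse (points) by group, with the mean and SD over 5 mice (bars, lower ends not drawn below 0). Western diet vehicle mice lie above all other mice for Acot2 and Acot3, with Acot3 at 15.6 to 59.2 CPM against at most 14.8 CPM elsewhere.

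The first comparison was of the Western with the control diet in vehicle mice. The Western diet was accompanied by higher Acot2, Acot3 and Acot4, the mitochondrial and both peroxisomal enzymes of the cluster. Acot3 rose 11.3-fold (log2 change 3.50, SE 0.71), Acot2 rose 2.90-fold (1.53, SE 0.29) and Acot4 rose 2.32-fold (1.21, SE 0.26). Adjusted p-values in edgeR's quasi-likelihood test were 0.00216, 7.14e-04 and 0.00259. These 3 of 8 members were higher, while 8.92% of all genes tested were higher by the same rule. The remaining 5 did not pass: Acot1 was at 0.89 (SE 0.36, adjusted p = 0.105), Acot12 at 0.31 (SE 0.11, adjusted p = 0.0670), and Acot8, Acot9 and Acot13 between 0.21 and 0.33. Acot12 passed as well without Western diet vehicle mouse 4 (0.36, adjusted p = 0.0164), without control diet vehicle mouse 5 (0.41, adjusted p = 0.0117) and with limma-voom (0.34, adjusted p = 0.0142). The median log2 change of the 8 was 0.61 and that of all genes tested 0.02.

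The second comparison was of VB with vehicle on the Western diet, where the same 3 genes were lower with VB. Acot3 fell 7.74-fold (log2 change -2.95, SE 0.68), Acot2 fell 3.12-fold (-1.64, SE 0.29) and Acot4 fell 2.68-fold (-1.42, SE 0.26), with adjusted p-values of 0.0129, 0.00156 and 0.00218 in edgeR's quasi-likelihood test. That was 3 of 8 members lower, beside 3.86% of all genes tested. All 8 log2 changes were negative, but those of Acot1 (-1.14, SE 0.36, adjusted p = 0.0693), Acot12 (-0.28, adjusted p = 0.154), Acot8 (-0.21), Acot13 (-0.18) and Acot9 (-0.11) did not pass. The median was -0.71, and -0.02 over all genes tested. Without Western diet VB mice 2 and 5, which held adipocyte transcripts and had the lowest Acot3 levels, Acot2 was at -1.32 (adjusted p = 0.0266) and Acot4 at -1.12 (adjusted p = 0.0247), while Acot3 was at -2.31 and no longer passed (adjusted p = 0.0638). Without Western diet vehicle mouse 4, Acot12 passed (-0.34, adjusted p = 0.0395), and without Western diet VB mouse 4, Acot1 passed (-1.40, adjusted p = 0.0292). The diet and VB comparisons share the Western diet vehicle mice, so they are not independent of each other. In bulk liver, fewer cells of a type and less RNA per cell cannot be told apart.

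On the control diet no member passed edgeR's quasi-likelihood test between VB and vehicle, where 0.151% of all genes tested, 19 genes, were called. Before adjustment 2 members, Acot3 and Acot12, had a p under 0.05, beside 1354 of all 12616 genes tested. DESeq2 called 0 members. Acot3 was at a log2 change of 1.56 (SE 0.70, 95% interval 0.19 to 2.92, adjusted p = 0.440) and Acot12 at 0.36 (SE 0.11, interval 0.14 to 0.58, adjusted p = 0.214). Acot1 was at 0.59 (SE 0.36), Acot2 at 0.42 (SE 0.29) and Acot4 at 0.39 (SE 0.26), and their intervals ran from -0.15 at the lowest to 1.30 at the highest. Of the 8 estimates 6 were positive. Acot12 was the one member that limma-voom called here (0.37, adjusted p = 0.0316).

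Between the diets in VB mice again no member passed edgeR's test, beside 6.44% of all genes tested. Before adjustment 3 members had a p under 0.05, Acot1, Acot4 and Acot12, beside 2719 of all 12616 genes tested. DESeq2 and limma-voom called 1 member, Acot12. Acot12 was closest, at -0.33 (SE 0.11, adjusted p = 0.0857), and its groups did not overlap. It passed without Western diet vehicle mouse 4, which is in neither group but shares the estimate of spread (-0.34, adjusted p = 0.0297). The cluster genes had negative estimates, from -0.53 (SE 0.29) for Acot2 to -1.01 (SE 0.67) for Acot3, and Acot8 and Acot13 positive ones of 0.11 and 0.30.

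Whether the effect of VB depended on the diet was tested as the difference of its effects, Western minus control diet. For 5 of 8 members VB had a lower effect on the Western diet, beside 4.01% of all genes tested. The differences in log2 change were -4.51 (SE 0.97) for Acot3, -2.06 (SE 0.41) for Acot2, -1.81 (SE 0.37) for Acot4, -1.73 (SE 0.51) for Acot1 and -0.64 (SE 0.16) for Acot12. Adjusted p-values in edgeR's quasi-likelihood test were 0.00870, 0.00347, 0.00461, 0.0465 and 0.0166. The Acot1 call was the least secure, and it was lost in 15 of 20 fits that each left out 1 mouse. Acot8, Acot9 and Acot13 were at -0.16 (SE 0.17), -0.43 (SE 0.29) and -0.03 (SE 0.22). Without Western diet VB mice 2 and 5, Acot3 was at -3.86 (adjusted p = 0.0152), Acot2 at -1.74 (adjusted p = 0.0177), Acot4 at -1.51 (adjusted p = 0.0126) and Acot12 at -0.65 (adjusted p = 0.0421), while Acot1 did not pass (-1.56, adjusted p = 0.151).

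**Figure D3:**
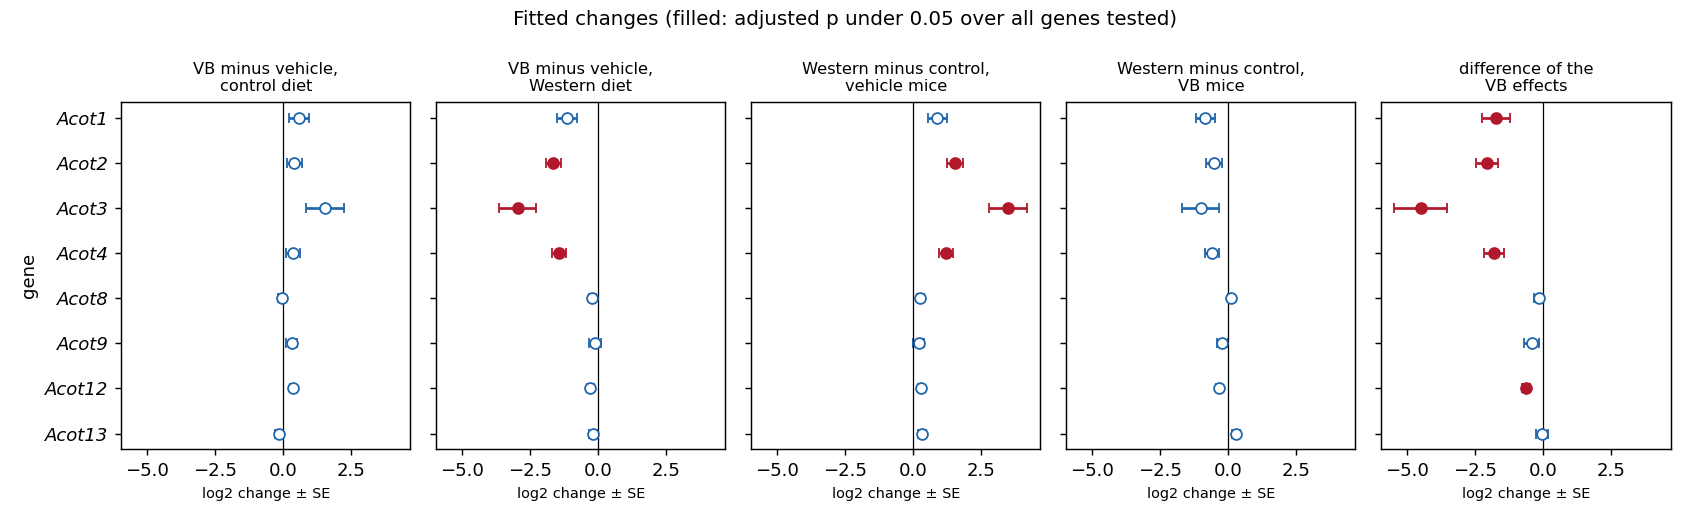
Fitted log2 change (horizontal axes) with its SE for each member in the 5 comparisons; filled points passed an adjusted p of 0.05 over all genes tested. Acot2, Acot3 and Acot4 lie to the right in the diet comparison of vehicle mice and to the left in the VB comparison on the Western diet, and no point is filled in the VB comparison on the control diet or the diet comparison of VB mice.

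The clock score moved with these groups. On the control diet its mean was -1.30 ± 0.39 (SD, n = 5) with vehicle and -0.22 ± 0.26 with VB, and on the Western diet 1.29 ± 0.13 with vehicle and 0.23 ± 0.42 with VB. Acot2, Acot3 and Acot4 had their highest means in Western diet vehicle mice. The means of all 4 cluster genes were lower in Western diet VB mice than in control diet VB mice. With the score as a covariate no member passed edgeR's test in any comparison, and the number with an unadjusted p under 0.05 was 1 in VB on the Western diet, 3 in diet in VB mice and 0 in the other 3 comparisons. The number of all genes under that threshold in these fits was not counted. On the Western diet the VB effect was then -1.32 for Acot2 (adjusted p = 0.456), -1.29 for Acot3 (adjusted p = 0.878) and -0.73 for Acot4 (adjusted p = 0.712), and the diet effect in vehicle mice was 0.70 for both Acot1 and Acot2, -0.88 for Acot3 and -0.52 for Acot4. The ranges of the vehicle groups in score do not touch any other group's, so clock state cannot be told apart from group in the comparisons that hold vehicle mice, whereas the VB groups overlapped in score.

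A sum of adipocyte markers also moved with the diet, mainly through Cfd. The summed level of 6 adipocyte markers was 59.3 to 295 CPM in Western diet vehicle mice, 15.5 to 58.4 CPM in Western diet VB mice and 7.69 to 15.7 CPM on the control diet. In Western diet vehicle mice it consisted almost wholly of Cfd and Lipe, at means of 167 and 25.1 CPM, while the defining marker Lep was at 0 in all 5 and Adipoq at a mean of 0.0495 CPM. In Western diet VB mice the means of Cfd and Lipe were lower, at 18.2 and 10.5 CPM. That of Adipoq was higher there, at 2.28 CPM, through mice 2 and 5. The part of these transcripts in the thioesterase results was not tested, beyond the fits without the 2 libraries that held Adipoq.

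Within groups the cluster genes also varied together. After the group means were removed, Pearson's r over the 20 mice was 0.94 between Acot3 and Acot4, 0.81 between Acot2 and Acot4, 0.79 between Acot2 and Acot3 and between Acot1 and Acot2, 0.72 between Acot1 and Acot4 and 0.67 between Acot1 and Acot3. These values are a description, and reads of Acot1 and Acot2 can be nearly the same, as shown in the coding stretch above. The other pairs of the cluster also share identical coding runs, of 67 bases or more. Western diet VB mouse 4 was above its group's mean in all 4 cluster genes and control diet VB mouse 2 was below its own in all 4. Outside the cluster, Acot8 varied with Acot2 (0.72) and with Acot13 (0.70), and Acot12 varied against Acot13 (-0.51). Western diet vehicle mouse 4, the library with the high mitochondrial share, deviated from its group's mean log2 CPM by 0.60 in Acot13. In the same mouse Acot8 deviated by 0.42 and Acot12 by -0.30, and the correlations were not recomputed without it.

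**Figure D4:**
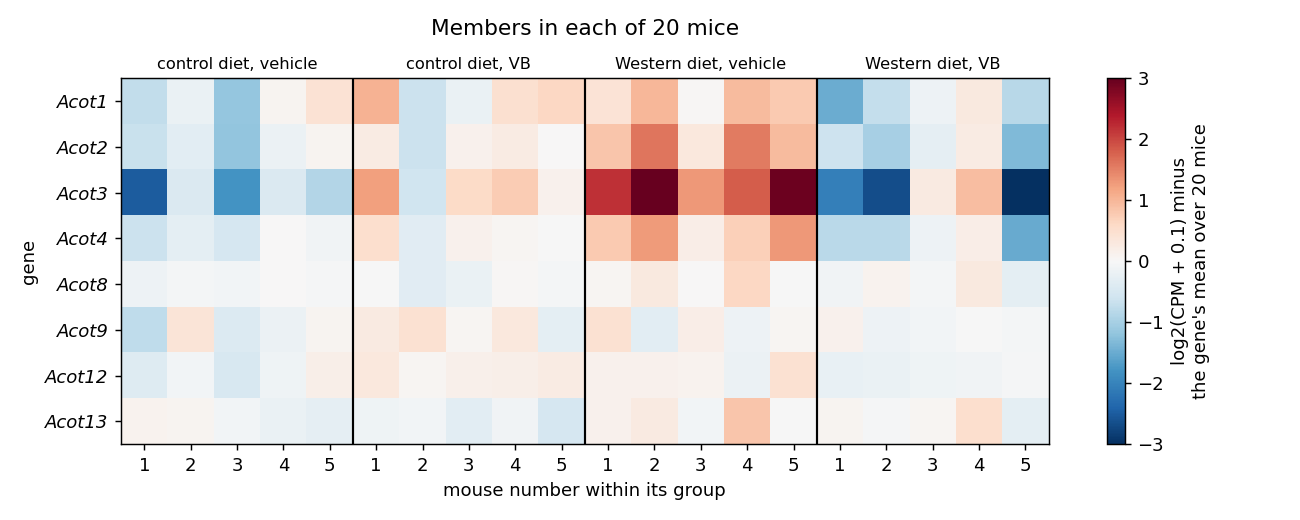
Log2(CPM + 0.1) of each member (rows) minus its mean over 20 mice, in each mouse (columns, by group); red is above and blue below the gene's mean, and the colour scale ends at 3 in both directions. The rows of Acot1 to Acot4 change colour together from mouse to mouse, with Acot3 the strongest, whereas Acot8, Acot9, Acot12 and Acot13 stay pale.

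The genes around the cluster were compared to see whether the change was shared by the locus. Within 300 kb of it, 9 other genes were tested, a window set after the values were seen. In vehicle mice 2 of them were called between diets and their log2 changes lay between -0.46 and 0.40. With VB on the Western diet 1 was called, Entpd5, an endoplasmic reticulum nucleotidase gene, at -0.70 (adjusted p = 8.20e-04), and all 9 lay between -0.70 and 0.07. Acot6, the cluster's least abundant tested gene at a mean of 1.27 CPM in Western diet vehicle mice against 0.332 CPM in control diet vehicle mice, rose with the diet by 1.92 (SE 0.48, adjusted p = 0.00770). With VB on the Western diet it was at -1.34 (SE 0.46, adjusted p = 0.0845). Acot5 had at most 3 counts in any mouse and was not tested.

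**Figure D5:**
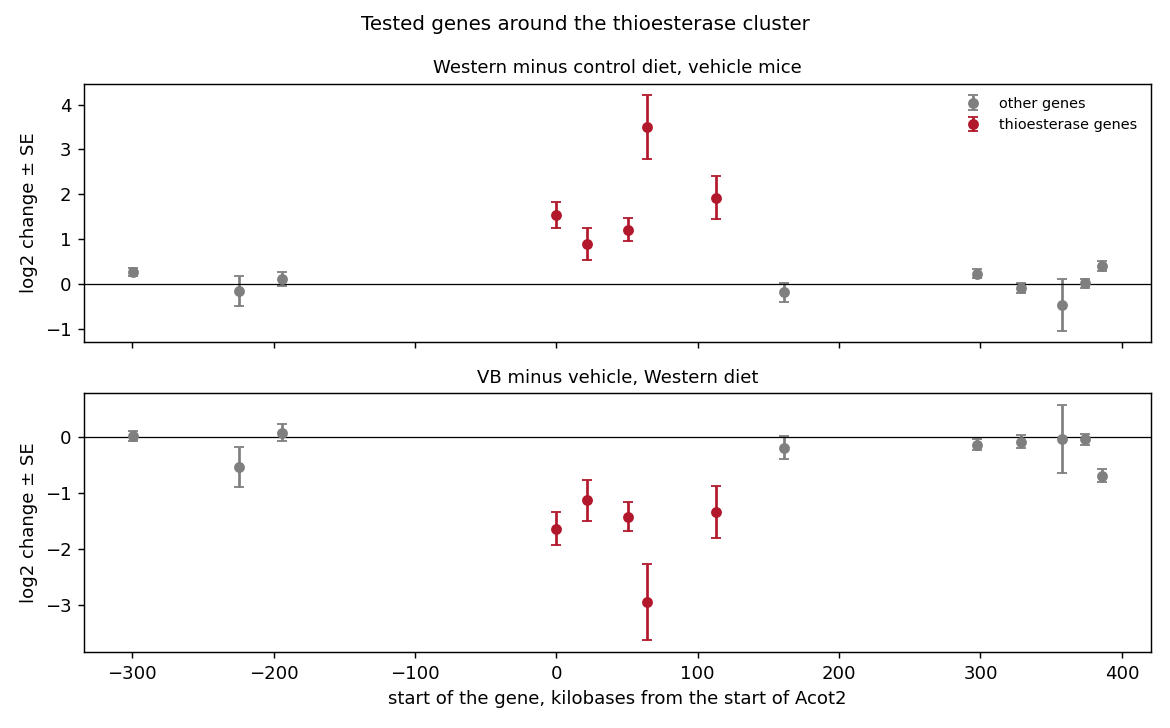
Fitted log2 change with its SE (vertical axes) of tested genes against the distance of their start from that of Acot2 in kilobases, for the diet comparison in vehicle mice (top) and the VB comparison on the Western diet (bottom). The 5 thioesterase genes, red, reach 3.50 and -2.95, and the 9 other genes, grey, stay between -0.46 and 0.40 at the top and between -0.70 and 0.07 at the bottom.

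Thioesterases outside the 8 were counted as well. Of 13 further thioesterases and related hydrolases 10 were tested. In vehicle mice 4 of them rose with the Western diet and 1 fell, beside 1125 and 958 of all 12616 genes tested. Acot11, a type II enzyme known from brown fat, where it limits heat production, with vehicle had a mean of 3.67 CPM ± 0.99 (SD, n = 5) on the control diet and 22.9 ± 5.26 on the Western diet (log2 change 2.64, SE 0.22, adjusted p = 2.44e-08). It also rose with the diet in VB mice, where no cluster member passed, from 4.23 ± 1.49 to 16.8 ± 1.74 CPM (2.00, SE 0.21, adjusted p = 2.39e-06), and the difference of its VB effects did not pass (-0.65, SE 0.30, adjusted p = 0.221). Ppt1, the lysosomal palmitoyl-protein thioesterase, rose by 0.56 (SE 0.09) with the diet in vehicle mice and fell by 0.34 (SE 0.09) with VB on the Western diet, a call lost without Western diet VB mouse 5 (-0.31, adjusted p = 0.0528). Hibch, which hydrolyses an intermediate of valine breakdown, rose by 0.42 (SE 0.09) with the diet in vehicle mice. Them4 went the other way, with a fall of 0.45 (SE 0.15) with the diet and a rise of 0.54 (SE 0.15) with VB on the Western diet. The call of that rise was lost in 7 of 20 fits that each left out 1 mouse.

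Enzymes that feed or compete with thioesterases moved in part alongside the cluster. Over all 12616 genes tested, 1125 rose and 958 fell with the diet in vehicle mice. With VB on the Western diet 420 of all genes rose and 487 fell. Among 17 genes of mitochondrial fatty acid oxidation, 10 rose and none fell with the diet in vehicle mice, and 8 fell and none rose with VB on the Western diet, with a median of 0.29 and -0.26. Acadm, the medium-chain acyl-CoA dehydrogenase, fell by 0.66 (SE 0.12) with VB on the Western diet, and Cpt1a, which commits fatty acids to mitochondrial import, rose by 0.91 (SE 0.15) with the diet. Among 21 peroxisomal genes, 9 rose and 1 fell with the diet, and 11 fell and 1 rose with VB. The peroxisomal CoA hydrolase Nudt7 rose by 0.91 (SE 0.16) with VB on the Western diet.

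The counts that follow stand beside 1125 higher and 958 lower of all 12616 genes tested with the diet in vehicle mice. With VB on the Western diet 420 of all genes were higher and 487 lower. Of 15 tested further PPARA targets, 8 rose with the diet in vehicle mice and 5 fell with VB on the Western diet, none in the opposite direction. Vnn1, which releases pantothenate used for CoA, rose by 2.08 (SE 0.36) and fell by 1.73 (SE 0.35), the fall not passing without Western diet VB mice 2 and 5 (-1.53, adjusted p = 0.0597), and Cd36, a fatty acid uptake receptor, rose by 1.79 (SE 0.32) and fell by 1.79 (SE 0.32). Ppara itself rose by 1.09 (SE 0.16) with the diet. On the control diet no gene of these 3 lists was called with VB, where 19 of all 12616 genes tested were called. The opposing synthetases were mixed: of 16 tested, 6 rose and 4 fell with the diet, with Slc27a2 at 0.79 (SE 0.11) and Acss2, which activates acetate, at -2.46 (SE 0.23), and 5 fell and 2 rose with VB on the Western diet. Of 7 tested acyl-CoA binding proteins 1 rose (Scp2, 0.28, SE 0.07) and 1 fell (Dbi, -0.51, SE 0.14) with the diet, and none was called with VB. Clock genes, listed as a measure of the animals' circadian state, had 11 higher and 6 lower of 21 with the diet and 4 and 4 with VB on the Western diet. With VB on the control diet Ciart (2.74, SE 0.41) and Tef (1.12, SE 0.20) rose and Npas2 (-1.93, SE 0.36) fell. Of 20 fits that each left out 1 mouse, the Npas2 call was lost in 5, the Tef call in 2 and the Ciart call in 0.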

How the data were processed

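Liver RNA libraries were made with a TruSeq kit, per the labels, and the authors deposited raw read counts of every gene in 40 lane files. The submitters' processing notes name the build GRCm38. No source used here names the aligner, the counting tool or the strand setting. The 2 lanes of each mouse differed by a chi-square per degree of freedom of 1.33 to 1.49, against 17.7 or more between mice of a group, and were summed. In 1 file the treatment label conflicts with its title, and the title was followed. Groups come from the titles.

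Counts were fitted in R 4.3.3 with edgeR 4.0.16: filterByExpr (minimum count 10, minimum total 15) kept 12616 genes with 99.95% of counts, TMM scaling, 1 robust quasi-likelihood model over 4 groups, and Benjamini-Hochberg adjustment over all genes, with calls at 0.05. Intervals are the estimate with a normal 95% range from its SE. P-values measure the spread between the 5 mice of a group. Log2 CPM used a prior count of 2. Alternatives were other scalings, DESeq2 1.42.0, limma 3.58.1 (voom), other filters, single lanes, Mup genes left out of library sizes, only the groups compared, the mouse number or a clock score (first principal component of 21 clock genes) in the model, each mouse left out, and, chosen after seeing the data, 2 or 3 libraries left out. The procedure was tested on simulated data.

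Named are all 8 members, up to 3 called genes with the smallest p per list and comparison, and the 3 genes most correlated with each member; other thioesterases and the neighbours of the cluster were named after their values were seen. Of the genes this rule names, 1 is not reported here. Members and lists were chosen with earlier results of these data known. Positions and transcripts are from GENCODE on GRCm38, and promoters from RefSeq on GRCm38.p6.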

Additional observations from a re-analysis of the deposited data

Results flagged for a closer look

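Of the 8 thioesterase genes, 5 had an effect of VB that differed between the diets by a test of the difference itself, in edgeR's quasi-likelihood model over all 12616 genes, beside 4.01% of all genes tested with a lower effect on the Western diet. The difference, Western minus control diet, in log2 change was -1.73 for Acot1 (adjusted p = 0.0465), -2.06 for Acot2 (adjusted p = 0.00347), -4.51 for Acot3 (adjusted p = 0.00870), -1.81 for Acot4 (adjusted p = 0.00461) and -0.64 for Acot12 (adjusted p = 0.0166). For Acot2, Acot3 and Acot4 the effect on the Western diet passed on its own and that on the control diet did not. For Acot1 and Acot12 neither passed on its own. The Acot1 call was lost in 15 of 20 fits that each left out 1 mouse, and all 5 calls were lost with the clock score as a covariate. All 5 Acot3 levels of Western diet VB mice were below those of Western diet vehicle mice, whereas 4 of 5 control diet VB mice were above 4.62 CPM, the highest level in their vehicle group.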

How the results depend on the processing

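Over 12 alternative settings and 20 fits without 1 mouse, Acot2, Acot3 and Acot4 kept their direction and their calls in VB on the Western diet, diet in vehicle mice and the difference of VB effects in every fit except that with the clock score. With the clock score as a covariate 0 members were called in these 3 comparisons, Acot3 and Acot4 reversed in VB on the control diet (-0.18 and -0.33) and in diet in vehicle mice (-0.88 and -0.52), and so did Acot9 (0.024 in VB on the Western diet, -0.12 in diet in vehicle mice), Hadh (-0.15) in diet in vehicle mice, and Acot13 in the difference (0.13). The score differs between groups, and the cause was not tested. In diet in VB mice 1 member, Acot12, was called with DESeq2, limma-voom, only the groups compared and the mouse number as a replicate block, and limma-voom called 1 on the control diet. The replicate block changed no other call of a member except Acot12 in diet in vehicle mice (0.31, adjusted p = 0.0327). Of 30 same-number correlations 7 exceeded 0.1, the highest at 0.378 between the Western diet vehicle and VB mice numbered 4. Correlations between mice of different numbers were not computed, so whether the numbers pair the mice cannot be settled. Acot1 was called in VB on the Western diet by DESeq2 (adjusted p = 0.0229), with only the groups compared (0.0443) and without Western diet VB mouse 4 (0.0292), and in diet in vehicle mice with only the groups compared (0.0426). Its difference of effects was not called without a low count filter (adjusted p = 0.0926) or from lane 2 (0.0695). Leaving out each mouse gave 0 to 1 called members in diet in VB mice. Estimates near 0 changed sign: Acot13 in the difference with limma-voom (0.049), in lane 2 (0.012), without 2 mice (0.11) or 3 (0.31) and from -0.15 to 0.15 without each mouse; Acot13 in VB on the Western diet without 3 mice (0.15); Acot8 in VB on the control diet in lane 2 (0.029) and from -0.085 to 0.0070 without each mouse, and in the difference without 3 mice (0.019); and Acot9 in diet in VB mice in lane 2 (0.011) and in VB on the Western diet from -0.19 to 0.011 without each mouse. In 2 fits added after seeing the data, without Western diet VB mice 2 and 5 and also without Western diet vehicle mouse 4, Acot3 kept its direction in VB on the Western diet but not its call (adjusted p = 0.0638 and 0.0535). Without these 3 mice 1 member, Acot13, was called in diet in VB mice (0.44, adjusted p = 0.0276). Counts of all genes called went for VB on the control diet from 19 to 29 with upper-quartile factors or a 1 CPM filter, 164 with DESeq2, 261 with limma-voom, 65 with the replicate block, 36 from lane 2, 30 without Mup genes, 66 with only the groups compared, 58 without 3 mice and 6 to 66 without each mouse. They moved from 907 to 464 for VB on the Western diet with only the groups compared, 295 without 2 mice and 559 without 3, from 813 to 1421 for diet in VB mice and from 964 to 1661 for the difference with limma-voom, and to 520 and 526 in these without 2 mice. Without each mouse the 2 last counts ran from 541 to 1397 and from 665 to 1702, both highest without Western diet vehicle mouse 4. With the clock score 0, 2, 28 and 1 genes were called in VB on the control and the Western diet, diet in vehicle mice and the difference. On raw library sizes Acot12 was at 118 CPM in control diet VB mice and 79.8 CPM in Western diet VB mice, and Acot9 at 2.64 CPM in the latter. Depth limits Acot3, with 6 counts in 1 mouse, and Acot9, with 33 to 102 counts per mouse.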

Other observations

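The genes whose log2 CPM followed each member most closely over the 20 mice were read as a description, with Pearson's r and no p, and the mice fall into 4 groups. For Acot2, Acot3 and Acot4 the list was led by Slc16a7, which encodes the monocarboxylate transporter MCT2, at 0.92, 0.94 and 0.93. Its means were 34.5 CPM in control diet vehicle mice, 43.4 in control diet VB mice, 72.8 in Western diet vehicle mice and 30.9 in Western diet VB mice. Ppp2r2d, a regulatory subunit of protein phosphatase 2A, was among the first 3 for the same genes (0.92, 0.92 and 0.92). Slc16a5, which encodes another transporter of the monocarboxylate family, was so for Acot3 (0.94) and Acot4 (0.90), with means of 3.75, 10.4, 19.3 and 3.63 CPM in the same order of groups. The third for Acot2 was the glucuronosyltransferase gene Ugt2b36 (0.91).

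Acot1 was closest to other genes of lipid breakdown: Hsdl2, a peroxisomal dehydrogenase-like gene (0.90), the fatty acid hydroxylase Cyp4a31 (0.90) and the long-chain acyl-CoA dehydrogenase Acadl (0.89). Acot8 was closest to Cd59a (0.92), Ap3s1 (0.91) and Eci1, an enoyl-CoA isomerase of mitochondrial oxidation (0.90). Acot12 was closest to Mtus1 (0.90), Garem (0.90) and Acad11, an acyl-CoA dehydrogenase (0.89). Acot13 was closest to Ccdc53, the copper chaperone Atox1 and Higd2a (0.94 each). The closest match of Acot9 was weaker, Phtf2 at 0.79, and its low level of 33 to 102 counts per mouse limits what can be read from it.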
